A study of Mus musculus with 6 samples.

Results

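The mRNAs of the translation initiation and elongation factors were followed in CT26 tumors of mice treated with H89 or with NaCl. The factors were taken by name: every gene symbol that begins with Eif followed by a digit from 1 to 6, or with Eef followed by 1 or 2, except the eIF2 kinases (symbols that begin with Eif2ak). This gave 71 genes of the 23557 listed. CT26 cells derive from a colon carcinoma of a BALB/c mouse, and 500000 cells were injected under the skin of female BALB/c mice aged 7 weeks. From day 6, one group of mice received H89 at 10 mg/kg by intraperitoneal injection 2 times a week, and the control group received NaCl by the same route. H89 is a small molecule known as an inhibitor of protein kinase A that also acts on other kinases of the same family. Tumors were removed on day 14 after the cell injection, with 3 tumors in each group, each numbered 1 to 3. Total RNA of whole tumors was sequenced, so grafted tumor cells and the mouse's own stromal, vascular and immune cells are mixed in each library.

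Protein synthesis begins when eIF2 brings the initiator tRNA to the small ribosomal subunit, where eIF1, eIF1A and eIF3 hold the subunit ready to scan. The mRNA arrives through eIF4F, in which eIF4E binds the cap, eIF4G is the scaffold and the helicase eIF4A unwinds the leader. The eIF4E-binding proteins (4E-BPs) compete with eIF4G for eIF4E until the kinase mTORC1 phosphorylates them. After eIF5 and eIF5B have completed subunit joining, eEF1A delivers aminoacyl-tRNAs and eEF2 moves the ribosome along the mRNA. The levels below are mRNA levels, and neither protein amount nor phosphorylation was measured.

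Levels are given in CPM, counts divided by the size of the library, scaled between tumors by edgeR's TMM factors, and differences as log2 fold changes of H89 against NaCl. Of the 71 factors, 63 reached a mean of 0.5 CPM over the 6 tumors and were tested together with all other such genes (13118 in all). All 63 also had a mean of at least 0.5 CPM in each group taken alone, so none passed through the group where it was higher. The 8 that were not tested were Eef1a2 and Eif2s3y, with at most 7 and 8 counts in any tumor, the read-through locus Eef1akmt4-ece2, with 0 counts in the 3 NaCl tumors and 21.9, 28.1 and 0 counts in H89 tumors 1 to 3, and 5 pseudogenes or retrocopies (Eef2-ps2, Eif1-ps3, Eif3s6-ps2, Eif4a3l1 and Eif4a3l2). Eif3s6-ps2 and Eif4a3l1 had 0 counts in every tumor. Eif2s3y lies on the Y chromosome and encodes the gamma subunit of eIF2, and its counts of at most 8 stood against 4130 to 6421 counts of its X-linked partner Eif2s3x.

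Total estimated counts were 27067349 to 31958793 per tumor, and a count of 3 corresponded to 0.0939 to 0.111 CPM. Markers of other cell types were summed in each tumor. Skeletal muscle markers summed to 3.31 to 4.87 CPM in NaCl tumors and to 26.5, 4.78 and 3.20 CPM in H89 tumors 1 to 3, so H89 tumor 1 stood apart in muscle RNA, led by Acta1 at 12.3 CPM. Of 10 keratinocyte markers Krt1 and Krt15 were at 0 and Krt5 and Krt14 were at 0.18 CPM or less, while the list's sum of 47.1 to 74.0 CPM in NaCl and 14.5 to 19.0 CPM in H89 tumors came mostly from Cdsn. The 7 fibroblast markers summed to 2483 to 2713 CPM in NaCl and 2787 to 3576 CPM in H89 tumors, without overlap, and the 8 macrophage markers to 2110.0 to 3371 and 2539 to 3071 CPM. Sums of 7 T cell markers were 15.3 to 32.6 and 27.5 to 73.3 CPM, those of 5 endothelial markers 83.1 to 142 and 70.0 to 108 CPM, and those of 10 proliferation markers 1671 to 1833 and 1747 to 1908 CPM. Of the 8 colon epithelial markers, Epcam, Cdx2 and Vil1 stayed at 1.18 CPM or less in every tumor, and the sum (109.9 to 124 CPM in NaCl, 77.2 to 93.0 CPM in H89 tumors) came mostly from Krt20. The part that these marker differences have in the values below was not tested, and in bulk tumors fewer cells of a type and less RNA per cell cannot be told apart.

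Taken as a share of all counts, the factors made up less of the RNA in H89 tumors. The 71 genes held 3.53%, 3.42% and 3.92% of the counts in NaCl tumors 1 to 3 and 2.71%, 2.83% and 3.08% in H89 tumors 1 to 3. Every H89 tumor lay below every NaCl tumor. Eef1a1 and Eef2 alone gave 2.12%, 1.98% and 2.41% of all counts in NaCl tumors and 1.43%, 1.56% and 1.79% in H89 tumors. The other 69 factors together gave 1.41%, 1.43% and 1.51% against 1.27%, 1.27% and 1.29%. On the TMM scale the summed level was 37119 ± 2748 CPM in NaCl and 28021 ± 846 CPM in H89 tumors (SD, n = 3 each). With 3 tumors against 3, the smallest p of an exact two-sided permutation test is 0.1, which groups without overlap always reach.

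**Figure D1:**
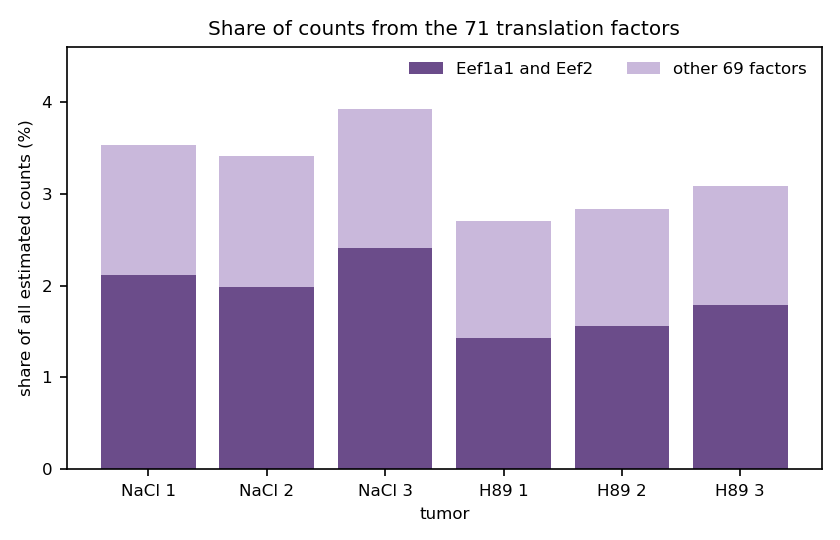
Share of all estimated counts, in percent (y axis), that came from Eef1a1 and Eef2 (dark) and from the other 69 factors (light) in each of the 6 tumors (x axis). The bars reach 3.42% to 3.92% in NaCl tumors and 2.71% to 3.08% in H89 tumors, and most of the gap lies in the dark part.

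Gene by gene, edgeR's quasi-likelihood test called 2 of the 63 factors at a Benjamini-Hochberg adjusted p under 0.05, 1 in each direction. Eif4ebp1, which encodes the repressor 4E-BP1, fell, and Eif4a2, which encodes an eIF4A helicase of the initiation complex, rose. The 2 calls are 3.17% of the factors tested, against 1.59% of all genes tested (0.861% higher and 0.724% lower). Most other factors were lower in H89 tumors without passing this test. The log2 fold change was negative for 49 of 63 factors (49.4% of all genes tested) with a median of -0.18, against 0.004 over all genes. In 29 factors (46.0%) all 3 H89 tumors lay below all 3 NaCl tumors, against 15.5% of all genes, and in 7 (11.1%) all 3 lay above, against 15.2%. An unadjusted p under 0.05 was reached by 26 factors with a lower level (41.3%, against 11.9% of genes) and by 4 with a higher one (6.35%, against 13.1%). Under median ratio normalization 29 factors lay fully below (46.0%, against 16.0% of genes) and 6 fully above (9.52%, against 15.1%). Quantile normalization gave 21 below (33.3%, against 15.1%) and 4 above (6.35%, against 11.6%), and total count scaling 22 below (34.9%, against 9.99%) and 6 above (9.52%, against 20.5%). Without H89 tumor 1, the one with muscle RNA, 40 factors (63.5%, against 23.7% of genes) lay fully below and 7 (11.1%, against 22.4%) fully above. In that fit 0 factors and 0 of all genes were called. With any other single tumor left out, 29 to 36 factors (46.0% to 57.1%, against 18.6% to 20.9% of genes) lay fully below. Fully above were then 7 or 8 factors (11.1% to 12.7%, against 19.0% to 21.2% of genes).

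The threshold fell inside a dense group of factors. Just inside it were Eif4ebp1 (adjusted p = 0.0338) and Eif4a2 (0.0471), and just outside it Eif3f (0.0504), Eef2 (0.0506), Eef1g (0.0528) and Eif1 (0.0547), by edgeR with Benjamini-Hochberg adjustment. An adjusted p under 0.06 was given to 6 factors (9.5%, against 2.36% of genes) and one under 0.1 to 16 (25.4%, against 9.03%). DESeq2, the tool that the study's methods name, called 18 factors, 1 higher and 17 lower (28.6%, against 10.8% of genes, 4.94% higher and 5.88% lower). The groups did not overlap in any of the 18. These calls used Benjamini-Hochberg adjustment without a fold cutoff. The study adjusted by Bonferroni and also required an absolute log fold change above 1. Among the 18, Eif4ebp1 had the largest log2 fold change by DESeq2, -0.70. Under quantile normalization 1 factor was called, Eif4ebp1, against 0.16% of genes (0.13% higher and 0.0305% lower). With each tumor corrected for the GC content and length of transcripts, 6 were called, 1 higher and 5 lower, against 2.53% of genes (1.35% higher and 1.18% lower). With any single tumor left out, edgeR called 0 factors and 0 to 12 of all 13118 genes, and 19 to 33 factors and 2421 to 3453 of all genes had an unadjusted p under 0.05.

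**Figure D2:**
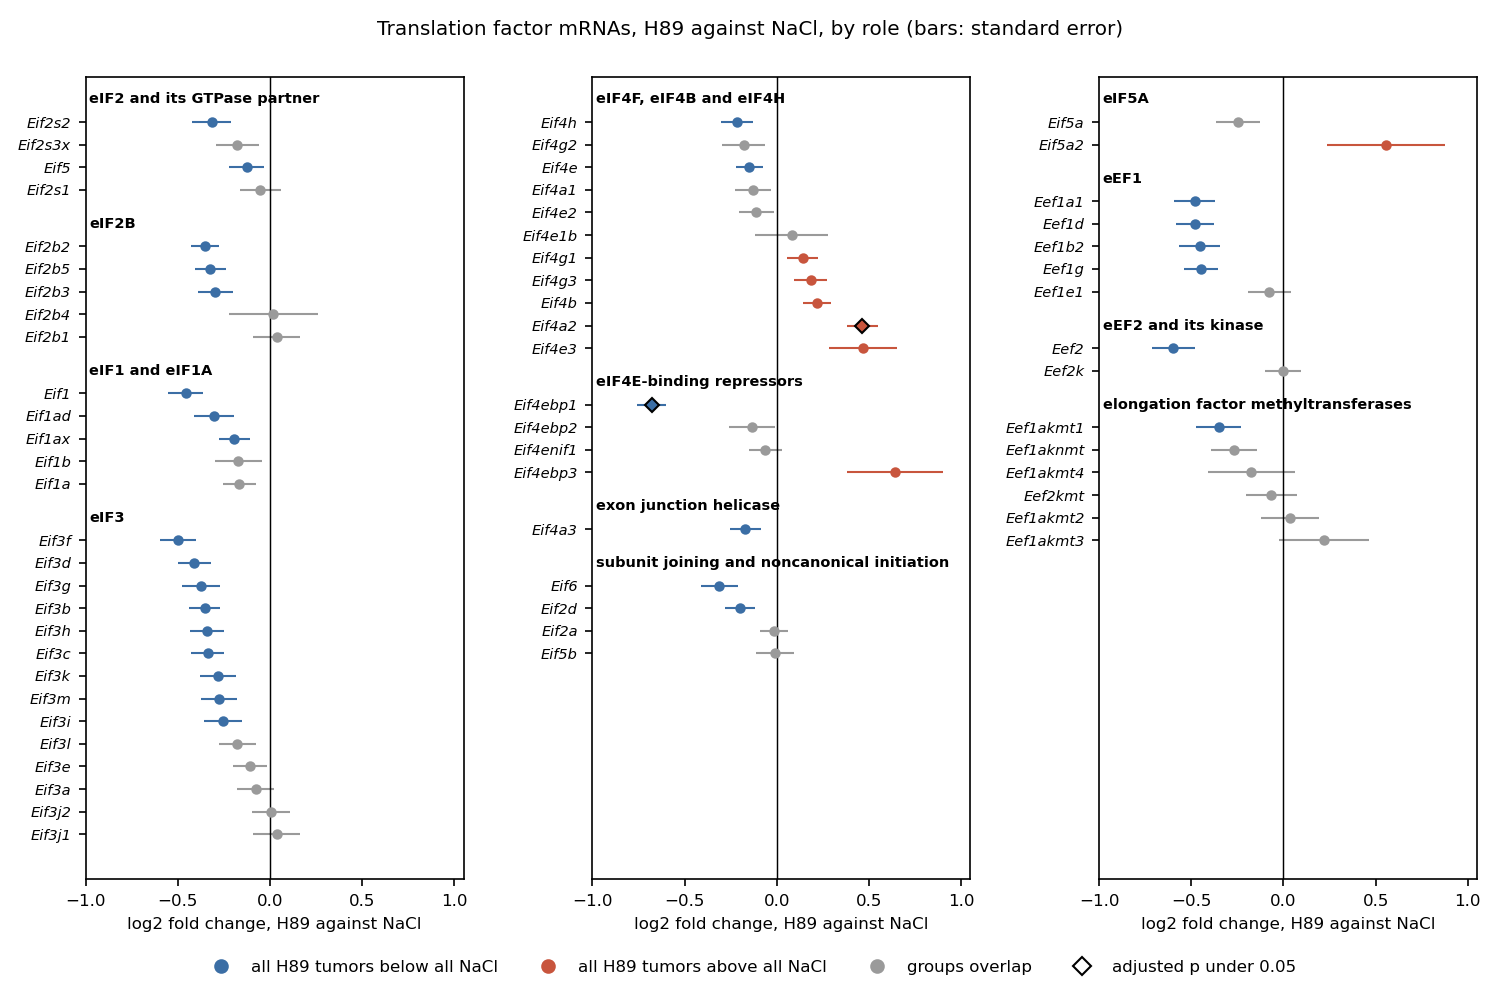
Log2 fold change of H89 against NaCl (x axis) with its standard error (bars) for the 63 factors tested, grouped by role and named on the y axis. Blue marks the 29 factors in which every H89 tumor lay below every NaCl tumor, red the 7 in which every H89 tumor lay above, grey the 27 with overlap, and black-edged diamonds Eif4ebp1 and Eif4a2, the 2 with an adjusted p under 0.05.

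Among the 4 genes for proteins that hold eIF4E back, Eif4ebp1 was the one called. It measured 601, 566 and 596 CPM in NaCl tumors 1 to 3 and 377, 365 and 359 CPM in H89 tumors 1 to 3. The groups lay far apart, and the H89 tumors held 0.625 times the NaCl level. The means were 588 ± 19.1 and 367 ± 9.20 CPM (SD, n = 3), and the log2 fold change was -0.68 (SE 0.0781, adjusted p = 0.0338 by edgeR; 2.39e-13 to 0.133 over the alternatives). Leaving out each tumor kept the change between -0.71 and -0.66 with adjusted p between 0.0663 and 0.133. The gene lies at chr8:27260329-27276674 (GRCm38, plus strand) and shares no exon with another gene in the annotation used. Its paralog Eif4ebp2, another 4E-BP, measured 43.7, 44.7 and 42.9 CPM in NaCl and 32.3, 42.6 and 44.5 CPM in H89 tumors, with overlap (log2 fold change -0.14, SE 0.125, adjusted p = 0.53). Eif4ebp3, a further paralog with few counts, was at 1.31 to 2.36 CPM in NaCl and 2.45 to 3.01 CPM in H89 tumors (0.64, SE 0.262, adjusted p = 0.181), and Eif4enif1, which encodes a shuttling eIF4E-binding protein, overlapped between groups. Within a tumor, Eif4ebp2 made up 6.77, 7.32 and 6.70% of the counts of the Eif4ebp1 and Eif4ebp2 pair in NaCl tumors and 7.88, 10.4 and 11.0% in H89 tumors.

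In the cap-binding complex with its cofactors, 5 of 11 genes lay fully above and 2 fully below, where 15.2% and 15.5% of all genes tested did. The median log2 fold change was 0.08, and it was -0.014 without NaCl tumor 3. Eif4a2 measured 119.8, 119 and 132 CPM in NaCl tumors 1 to 3 and 162, 172 and 177 CPM in H89 tumors 1 to 3, so that the lowest H89 tumor lay well above the highest NaCl tumor. Its means were 124 ± 7.52 and 170.4 ± 7.58 CPM (SD, n = 3), with a log2 fold change of 0.46 (SE 0.0841, adjusted p = 0.0471 by edgeR; 0.00048 to 0.143 over the alternatives). With each tumor left out the change stayed between 0.43 and 0.52, and its adjusted p between 0.0663 and 0.143. Eif4a2 lies at chr16:23107444-23114136 (GRCm38, plus strand), and its annotated exons overlap small nucleolar RNA genes on the same strand and Rfc4 on the opposite one. Whether the counting used strand is not given in the sources used here, so reads of Rfc4 cannot be told apart there.

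Eif4a1, the paralog with more counts, measured 598, 647 and 600.0 CPM in NaCl and 607, 572 and 507 CPM in H89 tumors, and the groups overlapped. Its log2 fold change was -0.13 (SE 0.0957, adjusted p = 0.43), and 0.044 under quantile normalization. Read as a share within each tumor, Eif4a2 gave 16.7, 15.5 and 18.1% of the 2 helicase mRNAs in NaCl tumors and 21.1, 23.1 and 25.9% in H89 tumors. The estimated counts of both genes lay up to 0.50 from a whole number, as counts do where reads are divided between transcripts, so the split of reads between near copies adds an uncertainty that the replicates do not show.

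Eif4e, the cap-binding protein itself, measured 141, 147 and 149 CPM in NaCl and 129, 132 and 132 CPM in H89 tumors (-0.15, SE 0.0731, adjusted p = 0.251), a small gap without overlap. Its homolog Eif4e2, known as a repressor that occupies the cap, overlapped between groups (-0.11, SE 0.0949). Eif4e3, another homolog, measured 6.68, 7.67 and 5.41 CPM in NaCl and 10.3, 7.72 and 9.35 CPM in H89 tumors (0.47, SE 0.183, adjusted p = 0.169). Of the scaffolds, Eif4g1 stood at 355, 382 and 369 CPM in NaCl and 384, 425 and 409 CPM in H89 tumors, a small gap without overlap (0.14, SE 0.0823, adjusted p = 0.324). Eif4g3 was at 52.6, 59.8 and 62.3 CPM in NaCl and 62.8, 68.6 and 67.1 CPM in H89 tumors (0.18, SE 0.0904, adjusted p = 0.247). Eif4g2, a scaffold that lacks the eIF4E site and serves cap-independent initiation, overlapped (-0.18, SE 0.117, and 0.028 under quantile normalization). The helicase cofactors went opposite ways without passing the test: Eif4b had a log2 fold change of 0.22 (SE 0.0782, adjusted p = 0.144) and Eif4h one of -0.22 (SE 0.088, adjusted p = 0.181), each without overlap between the groups.

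**Figure D3:**
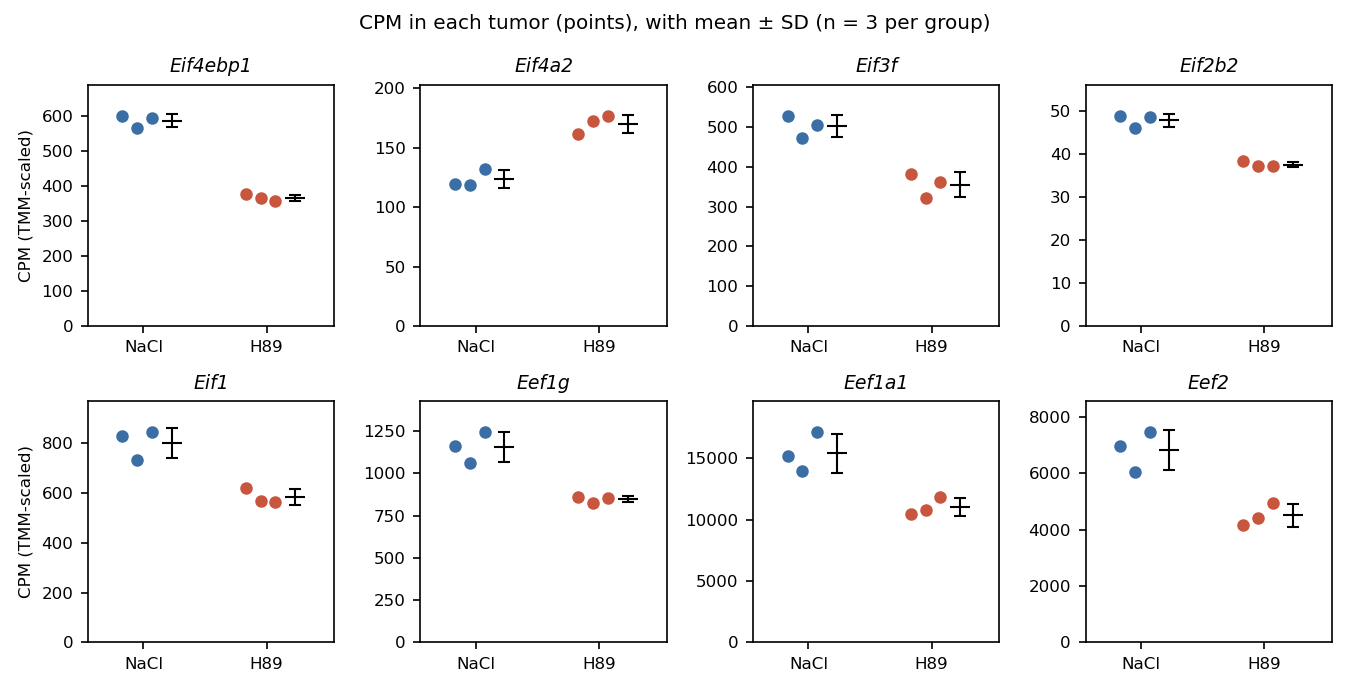
CPM on the TMM scale (y axes, from 0) in each NaCl (blue) and H89 (red) tumor for 8 factors, with the mean and SD of each group beside the points. Eif4a2 is higher in each H89 tumor than in any NaCl tumor, and the other 7 are lower.

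For eIF3, the large scaffold on the small ribosomal subunit, 12 of 14 subunit genes had a negative log2 fold change and 9 lay fully below, with a median of -0.28 and no call. Of all genes tested, 49.4% had a negative log2 fold change and 15.5% lay fully below. The share fully below was 26.1% of genes at 62.2 to 278 CPM and 47.9% at 288 to 13228 CPM. Eif3f, which encodes a subunit of the eIF3 core, came nearest to a call, with 527, 473 and 505 CPM in NaCl and 383, 321 and 361 CPM in H89 tumors. This was a log2 fold change of -0.50 (SE 0.0966, adjusted p = 0.0504 by edgeR; 9.42e-05 to 0.149 over the alternatives). Eif3h, the subunit with the most counts, measured 515, 505 and 598 CPM in NaCl and 439, 416 and 421 CPM in H89 tumors (-0.34, SE 0.0937, adjusted p = 0.089). The other 7 subunits that lay fully below (Eif3b, Eif3c, Eif3d, Eif3g, Eif3i, Eif3k and Eif3m) had log2 fold changes from -0.41 to -0.26. Eif3a, the largest subunit and the one around which the others assemble, was at 328, 335 and 388 CPM in NaCl and 311, 330.4 and 356 CPM in H89 tumors, with overlap (-0.077, SE 0.1). The loosely bound subunit eIF3j has 2 genes: Eif3j1 had a log2 fold change of 0.037 (SE 0.127) and Eif3j2 one of 0.0047 (SE 0.104), and the sign turned for Eif3j1 under quantile normalization and for Eif3j2 under the GC and length correction, among other settings.

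The factors that place the initiator tRNA and choose the start codon also had lower values in most cases, again with no call. Eif1, which keeps the scanning subunit from stopping at wrong codons, measured 831, 733 and 843 CPM in NaCl and 621, 568 and 564 CPM in H89 tumors (-0.46, SE 0.0931, adjusted p = 0.0547), and the groups did not meet. Its close copy Eif1b overlapped between groups (-0.17, SE 0.127). Eif1ax stood at 141, 145 and 156 CPM in NaCl and 131, 134 and 122 CPM in H89 tumors (-0.19, SE 0.0832, adjusted p = 0.199), and Eif1a at 161, 179.7 and 193 CPM in NaCl and 163, 155 and 158 CPM in H89 tumors with overlap (-0.17, SE 0.0912). Of the genes of eIF2, the beta subunit gene Eif2s2 measured 322, 340.0 and 392 CPM in NaCl and 308, 276 and 263 CPM in H89 tumors (-0.32, SE 0.106, adjusted p = 0.128). Eif2s1, the alpha subunit that the stress kinases phosphorylate, overlapped (-0.054, SE 0.111). Eif5, the partner that triggers GTP hydrolysis on eIF2, was at 359, 358 and 422 CPM in NaCl and 336, 351 and 356 CPM in H89 tumors (-0.13, SE 0.0943, adjusted p = 0.433).

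eIF2B recharges eIF2 with GTP, and 3 of its 5 subunit genes lay fully below, against 15.5% of all genes tested. Eif2b2 had the smallest p of the 5, with 48.7, 46.0 and 48.5 CPM in NaCl and 38.2, 37.0 and 37.1 CPM in H89 tumors (-0.35, SE 0.0757, adjusted p = 0.062). Eif2b5, the catalytic subunit, measured 68.1, 68.5 and 75.8 CPM in NaCl and 59.9, 56.2 and 53.5 CPM in H89 tumors (-0.32, SE 0.0846, adjusted p = 0.0827). Eif2b1 and Eif2b4 overlapped between groups and had log2 fold changes of 0.036 (SE 0.128) and 0.018 (SE 0.242). In the last steps of initiation, Eif6, which keeps the large subunit from joining too early, was at 196, 181 and 172 CPM in NaCl and 163, 134 and 146 CPM in H89 tumors (-0.31, SE 0.101, adjusted p = 0.119). Eif5b, the GTPase of subunit joining, measured 176, 161 and 164 CPM in NaCl and 189, 156 and 153 CPM in H89 tumors, with a log2 fold change of -0.0097 (SE 0.105) that was 0.074 under quantile normalization. The helicase Eif4a3, which acts in the exon junction complex rather than in initiation, was at 124, 135 and 129.9 CPM in NaCl and 123, 115 and 108 CPM in H89 tumors (-0.17, SE 0.0835, adjusted p = 0.25).

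The elongation factors showed some of the most negative log2 fold changes of all factors. Per kilobase of transcript, Eef1a1 stood at 8593 ± 883 CPM and Eef2 at 2211 ± 231 CPM in NaCl tumors (SD, n = 3), followed by Eif5a at 963 ± 70.3, Eef1g at 620.4 ± 47.7 and Eif1 at 607 ± 45.5 CPM, and these last 2 did not differ beyond their spread. Eef2, the translocase, measured 6979, 6055 and 7456 CPM in NaCl tumors 1 to 3 and 4161, 4411 and 4964 CPM in H89 tumors 1 to 3. The highest H89 tumor was well below the lowest NaCl tumor, and the log2 fold change was -0.60 (SE 0.116, adjusted p = 0.0506 by edgeR; 4.83e-05 to 0.155 over the alternatives). Eef2k, the kinase that switches eEF2 off, was at 34.9, 30.7 and 31.2 CPM in NaCl and 34.8, 30.6 and 31.2 CPM in H89 tumors, almost the same values in both groups (-0.0027, SE 0.0959).

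Eef1a1, which delivers aminoacyl-tRNAs and was the most abundant factor mRNA, measured 15213, 13943 and 17093 CPM in NaCl and 10450.1, 10801 and 11869.5 CPM in H89 tumors (-0.48, SE 0.111, adjusted p = 0.0691; 0.000614 to 0.183 over the alternatives). Genes of its nucleotide exchange complex stood alongside it. Eef1g measured 1163, 1064 and 1242 CPM in NaCl and 863, 825 and 856 CPM in H89 tumors (-0.45, SE 0.0898, adjusted p = 0.0528), while Eef1b2 and Eef1d had log2 fold changes of -0.46 (SE 0.111, adjusted p = 0.0775) and -0.48 (SE 0.102, adjusted p = 0.0615). All 4 lay fully below, as did 15.5% of all genes tested and 47.9% of those at 288 to 13228 CPM. Their log2 fold changes were closely similar under TMM, and under quantile normalization these spread from -0.76 for Eef1a1 to -0.21 for Eef1g. Eef1e1, grouped here by its name, encodes a part of the aminoacyl-tRNA synthetase complex, and it overlapped between groups (-0.076, SE 0.118). Eef1a2, the copy used in muscle and brain, had 0 counts in some tumors of each group, so no ratio to Eef1a1 was formed. Eif5a, which carries the amino acid hypusine and helps the ribosome past difficult peptide bonds, was at 1423, 1459 and 1269 CPM in NaCl and 1339, 1137 and 1025 CPM in H89 tumors with overlap (-0.25, SE 0.119, adjusted p = 0.243), and its paralog Eif5a2 at 0.468, 0.858 and 0.878 CPM in NaCl and 0.892, 1.19 and 1.16 CPM in H89 tumors (0.56, SE 0.319). Of the 6 methyltransferases that modify eEF1A or eEF2, Eef1akmt1 alone lay fully below, where 15.5% of all genes tested did. It measured 18.8, 20.8 and 18.3 CPM in NaCl and 15.6, 16.4 and 13.4 CPM in H89 tumors (-0.35, SE 0.121, adjusted p = 0.135). Eef1aknmt, with the most counts of the 6, overlapped (-0.27, SE 0.125).

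Paralogs were compared within each tumor, where a ratio does not depend on the scaling between tumors. Of 10 pairs, 9 gave a ratio in every tumor. In 4 of these the ratio lay higher in all 3 H89 tumors than in all 3 NaCl tumors, and in 0 lower. They were Eif4a2 to Eif4a1 (difference of log2 ratios 0.60), Eif4e3 to Eif4e (0.62), Eif4ebp2 to Eif4ebp1 (0.53) and Eif1b to Eif1 (0.28). Each had an exact two-sided permutation p of 0.1, the smallest that 3 tumors against 3 allow, and 0.225 after Benjamini-Hochberg adjustment over the 9 pairs. In each of the 4 it was the gene with fewer counts whose share was larger in H89 tumors. Across all genes tested with an annotated length, log2 fold changes were also lower at higher mean CPM (Spearman's rho -0.36). The part of that trend in these ratios was not tested, and ratios of other gene pairs were not formed. Eif5a2 to Eif5a differed more on average (0.85) than these 4 pairs but overlapped. The pairs of Eif4g3 to Eif4g1, Eif4e2 to Eif4e, Eif1a to Eif1ax and Eif3j2 to Eif3j1 differed by -0.037 to 0.047.

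**Figure D4:**
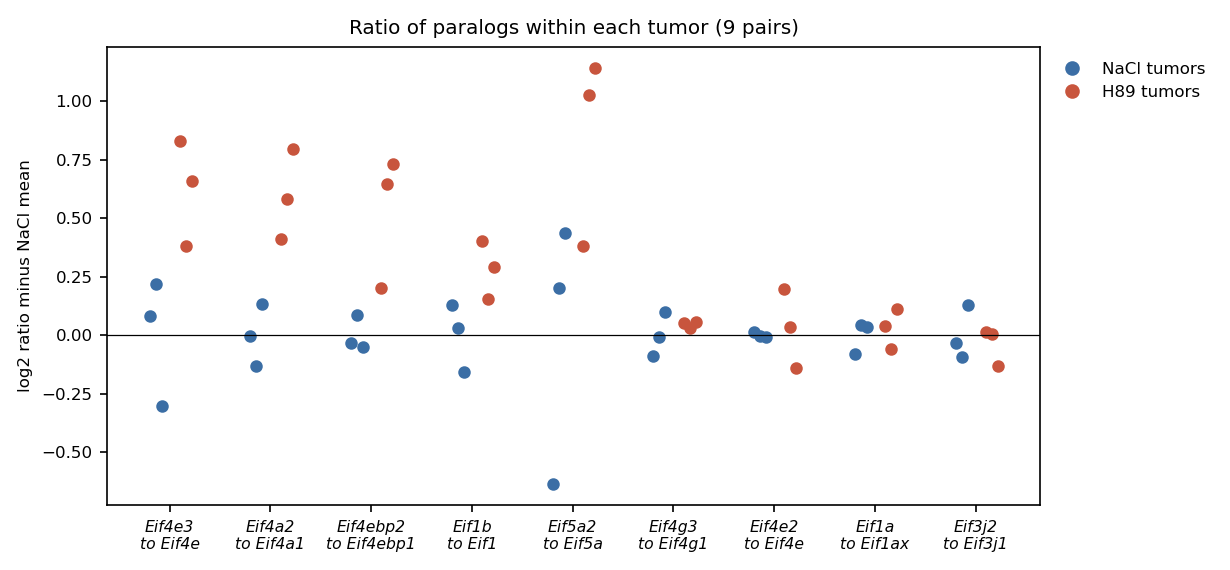
Log2 ratio of the CPM of 2 paralogs in each tumor, minus the mean of the NaCl tumors (y axis), for the 9 pairs with a ratio in every tumor (x axis). In the 4 pairs on the left every H89 tumor (red) lies above every NaCl tumor (blue), and in the other 5 the groups overlap.

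The log2 fold changes varied with the number of counts. Across 62 factors with an annotated length, Spearman's rho of the log2 fold change with the mean CPM was -0.58, and it was -0.36 across the 12920 genes tested that have one, as a description over genes measured in the same libraries. Split by mean CPM, the 21 factors with the lowest mean (0.907 to 47.3 CPM) had a median log2 fold change of -0.065, the middle 21 (62.2 to 278 CPM) one of -0.17, and the 21 with the highest (288 to 13228 CPM) one of -0.34. All genes tested within the same 3 ranges of CPM had medians of 0.062, -0.087 and -0.19. From the lowest range to the highest, 23.8%, 47.6% and 66.7% of the factors lay fully below, as did 9.71%, 26.1% and 47.9% of all genes in those ranges. Other genes with high counts thus also lay below more often than genes with low counts. The association with transcript length (rho 0.33 in factors, 0.20 in genes) and GC content (-0.30 and -0.24) was weaker.

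**Figure D5:**
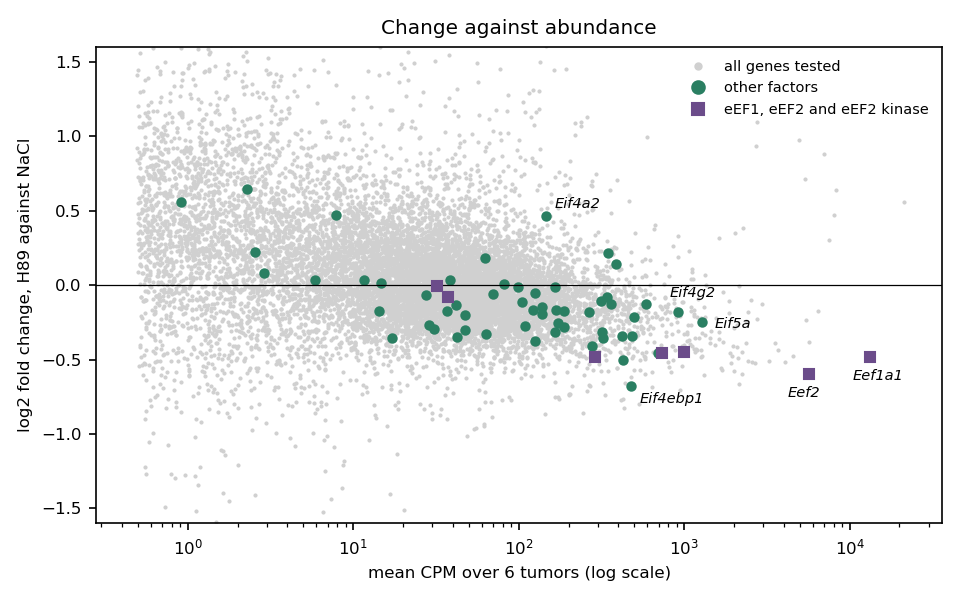
Log2 fold change of H89 against NaCl (y axis) against the mean CPM over the 6 tumors (x axis, log scale) for all genes tested (grey), the elongation factors eEF1 and eEF2 with the eEF2 kinase (purple squares) and the other factors (green). Factors above 288 CPM lie mostly below 0, with Eef2 at -0.60 and Eef1a1 at -0.48, and 107 of the grey genes lie beyond the y axis.

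The promoters of the factors were read for motifs, since many members were lower together. RefSeq (GRCm38.p6) gave a promoter of 250 bases before and 50 after the start for 51 of the 71 factors, 47 of them tested. None was found for Eif4ebp1, so that gene was not searched. The E-box, CACGTG, the site that MYC and its relatives bind, occurred in 14 of these 47 (29.8%) and in 11.4% of the promoters of the 10375 genes tested that have one. The cAMP response element, TGACGTCA, the site of CREB downstream of protein kinase A, occurred in 1 of 47 (2.13%), that of Eef2, and in 3.45% of all. Both motifs read the same on either strand. E-box windows of 4 genes of the cap-binding complex, of Eif3f and of Eef2 are shown as examples of the motif in genes described above, none of them called, and the bases before the start of Eif4a2 because that gene was called. All run 5′ to 3′ along the gene with the motif in capitals.
Eif4e E-box (chr3:138527020-138527065, plus strand): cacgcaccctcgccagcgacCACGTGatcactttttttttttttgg
Eif4g1 E-box (chr16:20672653-20672698, plus strand): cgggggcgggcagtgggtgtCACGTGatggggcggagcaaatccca
Eif4a1 E-box (chr11:69672587-69672632, minus strand): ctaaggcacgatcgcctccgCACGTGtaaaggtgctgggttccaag
Eif4h E-box (chr5:134639480-134639525, minus strand): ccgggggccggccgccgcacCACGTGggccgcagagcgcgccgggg
Eif3f E-box (chr7:108934327-108934372, plus strand): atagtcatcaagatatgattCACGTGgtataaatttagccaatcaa
Eef2 E-box (chr10:81176568-81176613, plus strand): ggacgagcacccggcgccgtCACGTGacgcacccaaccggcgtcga
Eef2 cAMP response element (chr10:81176613-81176650, plus strand): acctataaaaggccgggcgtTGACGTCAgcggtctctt
Eif4a2, 80 bases before the RefSeq start (chr16:23107388-23107467, plus strand), without either motif: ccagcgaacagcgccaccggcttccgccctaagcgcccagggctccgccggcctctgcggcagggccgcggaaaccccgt

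Starts here are those of RefSeq. That of Eif4a2 lies inside the GENCODE coordinates given above, so the last of its printed bases fall within the gene as GENCODE has it. The last bases of the Eif4h window likewise fall within Eif4h. In the window of the Eef2 cAMP response element, the motif itself lies after the RefSeq start and within Eef2, which starts at chr10:81176631 in GENCODE. The E-box windows of Eif4e and Eif4g1 lie wholly within their GENCODE genes, which start at chr3:138526179 and chr16:20668313. The E-box began 228 bases before the start in Eif4e, 54 in Eif4g1, 189 in Eif4a1, 96 in Eif4h, 68 in Eif3f and 43 in Eef2. The median log2 fold change was -0.17 for the 14 factors with an E-box and also -0.17 for those without one, and over all genes it was -0.018 with and 0.005 without. Among genes that share the motif, Eif4g1 lay fully above (adjusted p = 0.324 by edgeR) and Eef2 fully below (0.0506), and neither was called. The part of the motif in these differences was not tested. A match of these letters is a description of the sequence and no sign that a factor binds there.

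Other genes of protein synthesis were taken from lists of pathway members, 99 genes in 7 lists, of which 2 were called, both lower, where 1.59% of all genes tested were called. Aars, the alanyl-tRNA synthetase, measured 449, 464 and 499 CPM in NaCl and 316, 309 and 334 CPM in H89 tumors (-0.56, SE 0.0838, adjusted p = 0.0407). Of the 21 cytosolic aminoacyl-tRNA synthetase genes, 19 had a negative log2 fold change and 12 lay fully below (median -0.23). Of all genes tested, 49.4% had a negative log2 fold change and 15.5% lay fully below. The share fully below was 26.1% of genes at 62.2 to 278 CPM and 47.9% at 288 to 13228 CPM. Pabpc4, a poly(A)-binding protein that holds the mRNA tail to eIF4G, measured 612, 521 and 610.4 CPM in NaCl and 370.3, 399 and 367 CPM in H89 tumors (-0.62, SE 0.0959, adjusted p = 0.0407), and the other 13 genes of the mRNA and cap helper list were not called (median of all 14 -0.064, and 0.006 under total count scaling). Both calls were lost with any single tumor left out, with adjusted p from 0.0663 to 0.142.

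Hypusine and diphthamide, the modifications of eIF5A and eEF2, need the enzymes of another list. In it 8 of 11 genes had negative values (49.4% of all genes tested) and 5 lay fully below (15.5% of all), with a median of -0.21. Its smallest p belonged to Odc1, the entry enzyme of polyamine synthesis, with 464, 518 and 628 CPM in NaCl and 316, 341 and 366 CPM in H89 tumors (-0.65, SE 0.125, adjusted p = 0.0504). Among the eIF2 kinases and their phosphatase the median was -0.009, with 2 of 12 genes fully above and 3 fully below. Beside this list and those after it, 15.2% of all genes tested lay fully above and 15.5% fully below. Eif2ak2, the kinase PKR that senses double-stranded RNA, measured 44.4, 50.2 and 39.5 CPM in NaCl and 79.6, 61.1 and 68.3 CPM in H89 tumors (0.64, SE 0.127, adjusted p = 0.0523). Ppp1r15a, the stress-induced subunit that brings the phosphatase to eIF2, had a larger difference the other way, with 61.2 to 109 CPM in NaCl and 35.4 to 51.0 CPM in H89 tumors (-0.93, SE 0.225, adjusted p = 0.0764), and Ppp1ca, a catalytic subunit, also lay fully below (-0.30, SE 0.0869, adjusted p = 0.101). DESeq2 called these 3 genes, among 15 genes that it called over all the pathway lists, where it called 10.8% of all genes. The 18 genes of mTOR, S6 kinase and MNK control had a median of 0.045, with 1 fully above and 3 fully below, and Rictor, the scaffold of mTORC2, overlapped between groups (0.43, SE 0.161, adjusted p = 0.16). The 13 genes of termination, recycling and rescue had a median of 0.10, with 1 fully above and 3 fully below, among them Zfp598, a sensor of collided ribosomes, at -0.25 (SE 0.0787, adjusted p = 0.11). The 10 mitochondrial translation factors had a median of 0.047, with 3 fully above and 2 fully below. Mrrf, the mitochondrial recycling factor, was at -0.41 (SE 0.0898, adjusted p = 0.0628). The 3 above were the initiation factor gene Mtif2 (0.30, adjusted p = 0.174), the recycling factor gene Gfm2 (0.29, adjusted p = 0.144) and Guf1 (0.31, adjusted p = 0.125). The medians of these last 4 lists changed sign under at least 1 of the 15 alternatives.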

How the data were processed

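Per the submitters' processing notes, the authors used kallisto, DESeq2 and the GRCm38 genome; versions and strand settings are not given in the sources used here. The deposited table holds estimated counts per gene, although it is named for TPM: the authors' values sum to 27067349 to 31958793 per tumor and 58.6% to 61.4% of them lie within 0.01 of a whole number. Counts were rounded and tested with edgeR 4.0.16 in R 4.3.3 (quasi-likelihood, TMM, mean of at least 0.5 CPM), with Benjamini-Hochberg adjustment over the 13118 genes tested and a threshold of 0.05. The standard error is the log2 fold change divided by the root of the F statistic. Alternatives used DESeq2 1.42.0 and limma 3.58.1 (offset 0.5 CPM), other scalings and filters, and each tumor left out; exact tests used SciPy 1.17.1. The test was checked on simulated counts. Total count scaling and limma without the GC and length correction were chosen after seeing the data.

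Groups came from the sample labels, 3 tumors each; the p-values measure only the spread between these tumors. The members and lists were chosen with earlier results of these data known. Named genes were those called, the member of each role with the smallest p and the one with the highest mean CPM, all paralogs compared, Eif2s3y, and in each pathway list the gene with the smallest p and those called. Other factors named, among them Eif4b, Eif4h, Eif4ebp3, Eef1b2, Eef1d, Eef2k and the further subunits of eIF2, eIF2B and eIF3, and the list genes Ppp1r15a, Ppp1ca, Mtif2, Gfm2 and Guf1, were chosen after their values were seen. GENCODE M21 gave positions and lengths for 66 of 71 factors. A floor or value of few counts covers counting error only.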

Additional observations from a re-analysis of the deposited data

How the results depend on the processing

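The median log2 fold change of the factors stayed negative in 15 of 15 alternatives, and leaving out single tumors gave -0.22 to -0.15. The number of factors called varied: DESeq2 gave 18 (17 lower) and 15 pathway genes, the GC and length correction 6 (5 lower) and 4, the same limma fit without it 4 (3 lower), median ratio normalization 4 (3 lower), no filter 7 (6 lower) and 4, and quantile normalization 1 (0 higher) and 0. Of all genes, DESeq2 called 10.8%, the GC and length correction 2.53% and quantile normalization 0.16%. Limma without the correction called 268 of 12920 genes, median ratio normalization 251 of 13118 and no filter 311 of 18837. With each tumor left out, 0 factors, 0 pathway genes and 0 to 12 of all genes were called; the cause was not tested. Factors fully above numbered 4 without a filter (5.80%, against 12.4% of genes) and 4 under quantile normalization (6.35%, against 11.6%). Over all genes, 113 were called higher and 95 lower, against 131 and 33 under total count scaling, which moved the median of all genes to 0.076, 17 and 4 under quantile normalization, and 642 and 764 with DESeq2.

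Total count scaling moved the medians of all factors to -0.10, eIF2 to -0.078, eIF4F to 0.15, subunit joining to -0.036, hypusine and diphthamide synthesis to -0.14, mitochondrial factors to 0.11 and mRNA helpers to 0.0060. Quantile normalization moved eEF1 to -0.23 and eIF2 to -0.066. The GC and length correction moved eIF1 to -0.30, eIF2 to -0.25, eIF5A to 0.034 and Eif4a3 to -0.074. A mean of at least 5 CPM left Eif5a alone in its role (-0.22) and gave 0.17 for mitochondrial factors. Ranges with single tumors left out were -0.28 to -0.17 for eIF1, -0.014 to 0.11 for eIF4F, -0.18 to -0.092 for subunit joining, 0.045 to 0.24 for eIF5A, -0.30 to -0.11 for hypusine and diphthamide synthesis and -0.014 to 0.12 for mitochondrial factors.

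Genes near 0 turned sign: Eif3j2 was -0.013 with DESeq2, -0.099 with the GC and length correction, -0.00961 without a filter and -0.093 to 0.074 with tumors left out. Eif3j1 was -0.079 with that correction, -0.059 under quantile normalization and -0.032 to 0.099 with tumors left out. Eif5b was 0.021 at 5 CPM or more, 0.074 under quantile normalization, 0.058 under total count scaling and -0.11 to 0.044 with tumors left out. Under quantile normalization Eif4a1 was 0.044 and Eif4g2 0.028.

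The labels give both groups the same replicate numbers, but same-numbered tumors did not deviate together (r = 0.163, 0.061 and -0.025). With the replicate block, edgeR called 0 factors (0 higher, 0 lower), 0 pathway genes and 0 of all genes, with 3750 genes at an unadjusted p under 0.05, and Eif3j2 was -8.111e-06.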
